A study of Mus musculus with 22 samples.

Results

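The circadian clock and clock output genes described here are Dbp, Tef, Nr1d1, Nr1d2, Per1, Per2, Per3, Ciart, Bhlhe40 and Bhlhe41, taken as every probe that the platform annotation assigns to one of these 10 symbols. They account for 17 of the 25697 probes of the array. Total RNA of C57BL/6J mice was hybridised to 22 Illumina bead arrays, and the design text of the series speaks of male mice. Testis came from 8 mice of 27 weeks, 4 wild type and 4 mutant in Sgms1. Brain and muscle came from a further 7 mice of 17 weeks, 3 of them wild type and 4 mutant in Sgms1. The mouse identifiers in the labels assign both tissues to the same 7 animals. Every replicate was a separate mouse. Sgms1 encodes sphingomyelin synthase 1, which makes sphingomyelin from ceramide. The labels name the genotype as mutant without an allele, and they give neither the muscle nor the brain region sampled nor the hour of collection.

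The mammalian clock is a transcriptional feedback loop. A CLOCK and BMAL1 dimer (BMAL1 is encoded by Arntl) binds E-box elements and drives the Per and Cry genes, whose products then repress that dimer. It also drives Nr1d1 and Nr1d2, the nuclear receptors REV-ERB alpha and beta that repress Arntl, and the PAR bZIP factors Dbp and Tef, which carry rhythm to output genes through D-box elements. Bhlhe40 and Bhlhe41 (DEC1 and DEC2) and Ciart (CHRONO) are further repressors of E-box transcription. In liver, muscle and most other mouse tissues these transcripts oscillate over the day, so the level at one sampling time reflects both phase and amplitude.

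The promoters of these genes are shown because the E-box and the D-box are the letters through which the loop is known to act. RefSeq promoter entries of build GRCm38.p6 were matched for 8 of the 10 genes, with 10 promoters in all; Bhlhe40 and Per2 were not matched. On both strands of the 300 bases around each start (250 before, 50 after), the E-box CACGTG was present in 5 of these 10 promoters and in 7.15% of all 32851 promoters of the table. The D-box, searched as TTANGTAA, was present in 1 of the 10 and in 2.32% of all. The letters TAGGTCA of a REV-ERB and ROR element were in 0 of the 10 and in 2.61% of all, and the cAMP response element TGACGTCA was in 0 of the 10 and in 1.79% of all. A match is a run of letters and no evidence of binding, and none of the matches overlap. The 250 bases before the start are printed 5′ to 3′ on the strand of the gene, with matched letters in capitals, for Ciart (chr3:95882229-95882478, minus strand), Per3 (chr4:151044666-151044915, minus strand), Tef with 2 annotated starts (chr15:81802423-81802672 and chr15:81811164-81811413, plus strand) and Dbp (chr7:45704997-45705246, plus strand).
Ciart: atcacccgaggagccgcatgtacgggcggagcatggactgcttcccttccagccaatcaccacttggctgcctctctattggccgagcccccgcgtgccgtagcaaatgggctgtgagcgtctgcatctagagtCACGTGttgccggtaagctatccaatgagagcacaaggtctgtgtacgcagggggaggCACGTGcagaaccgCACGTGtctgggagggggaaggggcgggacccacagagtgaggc
Per3: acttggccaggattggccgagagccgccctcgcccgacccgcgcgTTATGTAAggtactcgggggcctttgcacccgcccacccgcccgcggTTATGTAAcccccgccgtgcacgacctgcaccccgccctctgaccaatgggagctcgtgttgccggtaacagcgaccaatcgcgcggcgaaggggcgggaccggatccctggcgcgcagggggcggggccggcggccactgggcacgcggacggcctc
Tef promoter 1: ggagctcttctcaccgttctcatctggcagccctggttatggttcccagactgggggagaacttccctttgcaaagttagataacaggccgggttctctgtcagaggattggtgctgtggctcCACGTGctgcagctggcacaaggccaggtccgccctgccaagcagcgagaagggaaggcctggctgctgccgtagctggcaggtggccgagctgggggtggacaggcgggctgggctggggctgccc
Tef promoter 2: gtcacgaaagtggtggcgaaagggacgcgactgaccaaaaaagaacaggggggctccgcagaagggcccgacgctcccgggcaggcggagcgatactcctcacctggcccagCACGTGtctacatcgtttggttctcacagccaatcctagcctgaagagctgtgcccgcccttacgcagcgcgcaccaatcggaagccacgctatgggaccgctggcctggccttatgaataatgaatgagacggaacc
Dbp: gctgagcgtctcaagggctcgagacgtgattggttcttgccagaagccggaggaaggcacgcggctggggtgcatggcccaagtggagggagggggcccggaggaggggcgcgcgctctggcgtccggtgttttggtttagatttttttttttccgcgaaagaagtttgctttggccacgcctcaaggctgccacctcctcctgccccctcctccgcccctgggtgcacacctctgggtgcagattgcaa
Ciart held 3 E-boxes, at 116, 58 and 44 bases before its start (-116, -58 and -44), the highest number among the matched promoters. Per3 held 2 copies of the D-box TTATGTAA, at -205 and -158. Each Tef promoter held 1 E-box, at -127 in promoter 1 and at -138 in promoter 2. Bhlhe41 held 1 at -153, and 1 of the 2 Per1 promoters held 1 at -166. None of the searched full motifs was present in the Dbp window, which says only that these letters are not in these bases. Whether a probe reports transcripts of one Tef start or the other was not analysed here.

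All values are log2 intensities after background correction and quantile normalization, and differences are on the same scale. A probe was tested in a tissue when it was detected (detection p under 0.05) on at least 3 arrays there. Median raw intensity per array ran from 93.7 in testis to 143 in brain and muscle, and the small number of arrays limits the precision of every difference. Sgms1 itself was lower in all 4 mutant muscle libraries (7.13 to 7.49) than in the 3 wild-type ones (7.76 to 8.11), although its adjusted p was 0.0871. In brain, the library labelled wild type 3 had Sgms1 at 6.62 and that labelled mutant 2 at 8.12, each within the range of the other genotype. The brain differences of Dbp, Bhlhe40, Per2, Per3 and the second Tef probe are therefore also given without both. Those of Nr1d1 and Ciart are given with both only. Skeletal muscle markers were summed at 16.83 to 16.86 in wild-type and 16.81 to 16.87 in mutant muscle. The neuron marker Snap25 was detected on no brain array, while the summed neuron markers lay between 13.88 and 14.02 there. Spermatid markers were summed at 12.37 to 13.41 in testis.

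Of the 17 probes, tests covered 12 in muscle (8 genes), 15 in brain (9 genes) and 13 in testis (8 genes). Bhlhe41 was detected on 0 of the 22 arrays and has no further value here. The third Per2 probe was detected on 3 testis arrays and nowhere else. Ciart and the second Nr1d2 probe were detected in muscle on 2 of 7 arrays, both from mutants, and were not tested there. Nr1d2 and the second Tef probe were detected on no testis array.

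In muscle, the PAR bZIP factor Dbp and the repressor Bhlhe40 were higher in Sgms1 mutants. All 12 tested probes of the clock genes had a higher mean in mutants, against 53.1% of the 11391 probes tested, and their median difference was 0.47 against 0.01 over all probes. By limma with adjustment over all probes, 2 of the 12 were called higher, where 0.0527% of all probes were. At an unadjusted p under 0.05, 8 of the 12 were higher (4.25% of all probes), from 6 genes. Every mutant library exceeded every wild-type library in 7 of the 12, against 4.4% of all probes. Per3 entered these counts through the mutants, where it was detected. Over the probes detected on at least 50% of the arrays of each genotype, a restriction chosen after seeing the data, 11 clock probes remained, all 11 with a higher mean in mutants (52.8% of all such probes). Of these 2 were called higher (0.0383%), 7 had an unadjusted p under 0.05 (3.97%) and 7 did not overlap (4.31%). Probes of one gene and genes of one loop are not independent, so these counts describe the libraries. The genes were also chosen with earlier results of these data known, so the shares are no test of the set.

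Dbp stood at 8.07, 8.18 and 8.23 in wild-type muscle and at 9.16, 9.45, 9.23 and 8.96 in mutant muscle. The wild-type libraries lay within 0.2 of each other and every mutant library lay well above them. The difference was 1.04 (SE 0.13), or 2.06-fold, with an adjusted p of 0.012 in limma and an exact permutation p of 0.0286, the smallest that 3 against 4 libraries can give. Bhlhe40 stood at 8.81, 9.10 and 8.75 in wild type and at 9.54, 9.89, 9.71 and 9.79 in mutants. Again the groups did not overlap. Its difference was 0.84 (SE 0.13), or 1.79-fold, with an adjusted p of 0.0486 in limma, just inside the threshold. Without wild type 2 Dbp was no longer called (1.06, adjusted p = 0.0592, limma). Bhlhe40 kept its call without mutant 1 (adjusted p = 0.0414, limma), and leaving out any other of the 7 libraries ended it (adjusted p 0.052 to 0.18).

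The Period genes encode the negative limb of the loop, and none of them passed the adjusted threshold in muscle, although the first Per2 probe did in 3 of 20 alternatives (lowest adjusted p = 0.037, limma). Per2 stood at 5.28, 5.14 and 5.48 in wild type and at 6.01, 6.40, 6.76 and 5.98 in mutants by its first probe. The groups were apart, and the difference of 0.99 (SE 0.19), or 1.98-fold, had an adjusted p of 0.0953 (limma). The second Per2 probe gave 5.81, 5.96 and 6.01 against 6.02, 6.83, 6.66 and 6.46, a difference of 0.56 (SE 0.17, adjusted p = 0.335, limma). Here the lowest mutant library was at almost the same level as the highest wild-type one. Per1 stood at 5.34, 6.53 and 6.87 in wild type and at 6.71, 7.39, 6.78 and 6.53 in mutants by its first probe. The genotypes overlapped, and wild type 1 lay more than 1 log2 unit below every other library. That Per1 difference of 0.60 (SE 0.32, adjusted p = 0.64, limma) shrank to 0.15 in the lowest of the fits that left out a library. Per3 was detected in 1 of 3 wild-type libraries, at 4.78, and in all 4 mutants, at 4.72 to 4.95. Since its other wild-type values were not above background, its measured difference of 0.40 (adjusted p = 0.42, limma) has no exact size.

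The REV-ERB receptors and Tef did not pass the adjusted threshold either. Nr1d1 stood at 7.93, 8.22 and 8.21 in wild type and at 8.90, 8.61, 8.55 and 8.51 in mutants by its first probe, without overlap. The difference was 0.52 (SE 0.13, adjusted p = 0.206, limma), and the second Nr1d1 probe gave 0.43 (SE 0.13, adjusted p = 0.305). Nr1d2 overlapped between genotypes, with 7.34, 7.01 and 7.09 in wild type and 7.53, 7.21, 7.20 and 7.46 in mutants. It differed by 0.20 (SE 0.13, adjusted p = 0.705, limma). The second Tef probe separated the genotypes, with 7.01, 6.93 and 6.76 against 7.27, 7.10, 7.27 and 7.31, and a difference of 0.34 (SE 0.11, adjusted p = 0.35, limma). The first Tef probe did not, at 0.17 (SE 0.22, adjusted p = 0.893). Both Tef probes were detected in all 7 libraries but reached their highest levels in different mice. Ciart exceeded background in mutants 2 and 3, at 5.12 and 4.69 by its first probe, and in no wild-type library. With wild-type values raised to the lowest detected signal of their arrays, the mutant mean was 1.04-fold and 1.13-fold higher by its probes. The undetected mutant libraries entered at their measured values, so these folds are not strict lower bounds. By the first probe mutant 3 was near the mean lowest detected signal of 4.69, so the excess rested mostly on mutant 2.

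**Figure D1:**
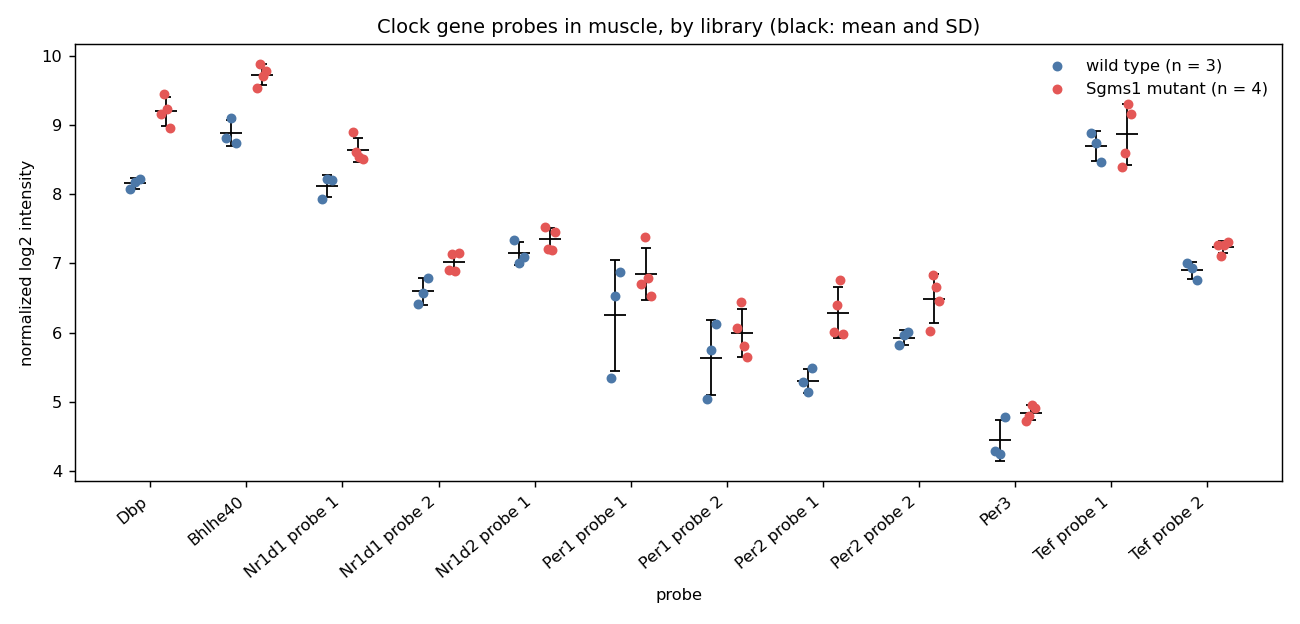
Normalized log2 intensity (vertical axis) of the 12 tested clock gene probes in the 7 muscle libraries, with blue points for 3 wild-type and red points for 4 Sgms1 mutant mice, and black bars for mean and SD. Dbp and Bhlhe40 show the widest gaps relative to their spread, with mutants from 8.96 for Dbp and from 9.54 for Bhlhe40, while Per1 and the first Tef probe overlap.

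The summed white adipocyte and astrocyte lists did not overlap between genotypes in the same libraries, while the brown adipocyte and slow fibre sums did. All 4 tested white adipocyte markers were lower in mutants, 1 of them past the threshold, and their log2 sum was 10.88 to 11.98 in wild type and 8.79 to 10.20 in mutants, with Retn detected on no array. Brown adipocyte markers were summed at 6.21 to 9.08 in wild type and 5.45 to 6.27 in mutants, led by wild types 1 and 3. Slow fibre markers were summed at 8.27 to 9.91 in wild type and 8.35 to 12.55 in mutants, led by mutants 1 and 2 (12.39 and 12.55). The astrocyte list (Gfap, Aqp4 and Slc1a2) was summed at 6.57 to 6.70 in wild type and 6.85 to 7.07 in mutants, with 1 of its 3 genes tested, higher and not called, and Slc1a2 detected on no array. In bulk tissue a change in the share of a cell type and a change in RNA per cell cannot be told apart. With the Adipoq level as a covariate, the Dbp difference was 1.15 (adjusted p = 0.746, limma) and that of Bhlhe40 was 0.57 (adjusted p = 0.999). Leaving out wild types 1 and 3, so that a single wild-type library remained and was assumed to vary as the mutants do, Dbp differed by 1.03 (adjusted p = 0.279) and Bhlhe40 by 0.62 (adjusted p = 0.695). Since the white adipocyte sums did not overlap between genotypes, a fat covariate cannot be divided from genotype in 7 libraries. The loss of the calls in these fits therefore answers nothing about fat. The part of fat, of fibre type and of the astrocyte list in these differences was not tested.

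The other clock genes that were tested did not move one way in muscle. Their list was chosen with earlier results of these data known, so their contrast with the genes above is descriptive only. Of 17 other clock genes listed, 15 were on the array and 10 were tested, of which 5 were higher and 5 lower in mutants and 0 were called. Their median difference was 0.00079. The 4 of smallest p were Cry2, a repressor of the loop, at -0.24 (adjusted p = 0.553), Btrc, a ubiquitin ligase subunit acting on PER proteins, at 0.19 (adjusted p = 0.713), Nfil3, which opposes Dbp at D-boxes, at -0.21 (adjusted p = 0.746), and Rora, an activator of Arntl, at 0.12 (adjusted p = 0.802). Arntl itself was at -0.05 and Clock at -0.09. Of 10 clock output genes listed, 9 were on the array and 7 were tested in muscle, of which 3 were higher and 4 lower and 0 were called. Pdk4, a kinase that restrains glucose oxidation, was at -0.45 (adjusted p = 0.182, limma), Tspo, a mitochondrial outer membrane protein, at -0.54 (adjusted p = 0.35), Usp2, a deubiquitinase, at 0.40 (adjusted p = 0.434) and Lpin1, a phosphatidate phosphatase, at -0.30 (adjusted p = 0.606). At an unadjusted p under 0.05, Pdk4 and Tspo passed as lower, as did 4.91% of all probes, and Usp2 as higher, as did 4.25%.

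In brain none of the 15 tested clock probes was called, as was the case for 0% of the 15264 probes of the tissue. An unadjusted p under 0.05 in limma with mutants higher was reached by 1 of the 15 (1.84% of all probes). The mean was higher in mutants for 12 of the 15 (50.7% of all probes), with a median difference of 0.16 against 0.002 over all probes. Nr1d1 differed by 0.30 by both probes and Ciart by 0.26 and 0.20. Dbp stood at 10.32, 10.51 and 10.66 in wild-type brain and at 10.55, 10.55, 10.68 and 10.86 in mutants. The genotypes overlapped, with a difference of 0.16 (SE 0.12, adjusted p = 0.999, limma). Bhlhe40 stood at 10.25, 10.30 and 9.89 against 9.99, 10.25, 10.06 and 10.07, with mutants inside the wild-type range and a difference of -0.05 (95% confidence interval -0.32 to 0.22). Per2 was slightly lower in mutants, at -0.14 and -0.11 by its probes. Per3 had the largest difference, 0.38 (SE 0.23), with wild types at 5.16, 5.17 and 6.16 and mutants at 5.52, 5.81, 6.02 and 6.14. Its highest library was wild type 3, one of the libraries whose Sgms1 level went against the label, and without both of these the Per3 difference was 0.73 (adjusted p = 0.593, limma). The second Tef probe was the one at the unadjusted threshold, with a difference of 0.29 (SE 0.13, adjusted p = 0.999 in limma, exact permutation p = 0.143). Without both doubted libraries 0 genes were called. Dbp then differed by 0.28, Bhlhe40 by -0.24, Per2 by -0.29 and -0.27 by its probes, and the second Tef probe by 0.39 (adjusted p 0.829 to 0.893, limma). Pituitary markers were summed at 6.17 to 14.83 in wild-type and 6.22 to 6.80 in mutant brain, and their part was not tested.

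In testis, which cycles weakly or not at all for several clock genes in mouse studies, 0 of 13 probes were called, as were 0% of the 12487 probes tested, and 1 of the 13 had an unadjusted p under 0.05 with mutants higher (2.48% of all). That probe was Per3. It stood at 4.22, 4.25, 4.47 and 4.33 in wild type, where 1 of 4 libraries detected it, and at 4.59, 4.73, 4.70 and 4.60 in mutants, where all 4 did. The measured values did not overlap, with a difference of 0.34 (adjusted p = 0.833, limma), but 3 of the 4 wild-type values were not above background, so the size is not exact. Over the 11 clock probes detected on at least 50% of the arrays of each genotype, 0 had an unadjusted p under 0.05 with mutants higher (2.49% of all such probes). Dbp stood at 6.31, 6.06, 6.31 and 6.13 in wild type and at 6.62, 6.08, 6.37 and 5.71 in mutants, a difference of -0.01 with mutants on both sides of the wild types. Bhlhe40 differed by -0.17 (SE 0.20) and Per2 by 0.35 (SE 0.19, adjusted p = 0.833, limma) by its first probe. The testis intervals of Dbp (-0.40 to 0.38) and Bhlhe40 (-0.59 to 0.26) lay below the muscle estimates, whose own intervals were 0.76 to 1.33 and 0.56 to 1.13. Bhlhe40 stood at 4.53 to 5.36 in testis, near the lowest detected signal of 4.47, so the size of its difference there is uncertain. The direct contrast of muscle and testis, given below, was not called for either gene. None of the other clock genes or output genes was called in brain or testis, out of 12 and 7 tested in brain and 9 and 6 in testis.

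**Figure D2:**
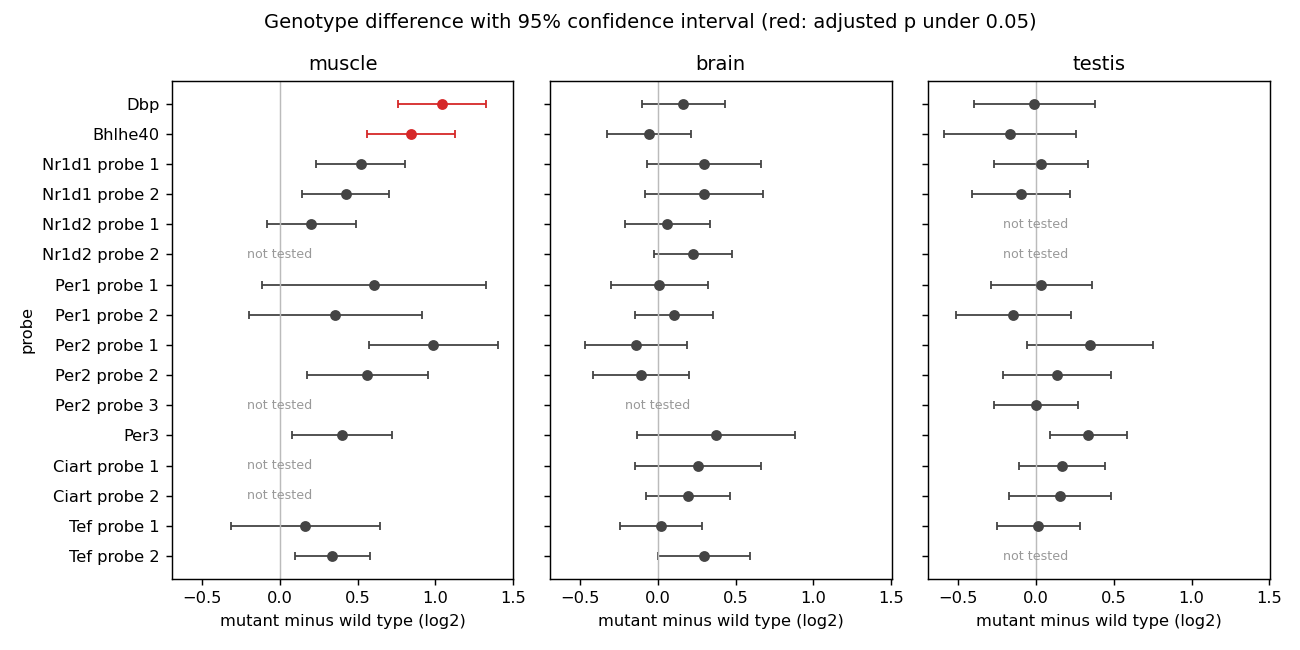
Difference between mutant and wild-type mice (log2, horizontal axis) for each clock gene probe in muscle, brain and testis, with 95% confidence intervals from limma and red where the adjusted p was under 0.05. Dbp at 1.04 and Bhlhe40 at 0.84 in muscle are the red points, and the intervals of the same genes in brain and testis include 0.

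Levels of a gene in brain and in muscle of the same mouse were compared with all 22 arrays normalized together. Per2, Per1 and Dbp were higher in brain, and Tef, Nr1d1 and Nr1d2 were higher in muscle. Bhlhe40 was called higher in muscle over all 7 mice, but its mean gap was 0.13 in favour of brain in wild-type mice and -0.71 in mutants (exact sign-flip p = 0.109 over all mice). Of 15 tested probes, 7 were called higher in brain (39.7% of the 16073 probes tested) and 6 lower (40.3%), so that being called is common between these tissues. Both Ciart probes and the second Nr1d2 probe were above background in 2 of 7 muscle libraries and entered through brain. Over the 12 clock probes detected on at least 50% of the arrays of each tissue, 5 were called higher in brain (31.1% of all such probes) and 6 lower (53.8%). Median scaling in place of quantile normalization moved the median of all probes to 0.34, and then Bhlhe40, the first Nr1d2 probe and the first Tef probe turned to higher in brain (0.29, 0.51 and 0.19). The directions of those 3 probes therefore hold only relative to the bulk of probes.

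The widest gap was that of the second Tef probe. It ran from 4.53 to 4.81 in brain (median 4.70) and from 6.95 to 7.43 in muscle (median 7.25). The difference was -2.57 (SE 0.07, adjusted p = 5.17e-12, limma), or 5.96-fold lower in brain, in all 7 mice. The brain level of this probe was near background, and under alternatives the difference ran from -2.88 to -1.11. Its direction held throughout, but its fold has no exact size. The first Tef probe differed by only -0.56 (SE 0.12, adjusted p = 0.00109), although both carry the Tef symbol. The platform lists them for different transcripts of the gene, and the probes disagree in size by more than their errors. Nr1d1 ran from 6.42 to 7.35 in brain (median 7.09) and from 8.02 to 8.93 in muscle (median 8.57) by its first probe. Its brain level was 2.74-fold lower (-1.46, SE 0.09, adjusted p = 7.23e-09, limma), and the second probe gave -1.26. Nr1d2 was lower in brain in all 7 mice by its first probe (-0.41, SE 0.06), with very even differences from -0.49 to -0.31 under quantile normalization.

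Per2 went the other way. It ran from 7.51 to 8.22 in brain (median 7.97) and from 5.47 to 6.95 in muscle (median 6.25) by its first probe, 1.78 higher in brain (SE 0.19, adjusted p = 2.37e-06, limma) and higher in all 7 mice. Its second probe gave 1.13. Per1 was 1.28 higher in brain by its first probe and 0.33 by its second, again in all 7 mice. Ciart was detected in all 7 brain libraries, at 5.56 to 6.31 by its first probe and 5.46 to 5.87 by its second, and in 2 of 7 muscle libraries, so no size is given for its difference. Dbp ran from 9.23 to 9.82 in brain (median 9.48) and from 8.16 to 9.43 in muscle (median 8.97), 0.74 higher in brain (SE 0.14, adjusted p = 0.000411, limma) in all 7 mice. Per3 (0.15, adjusted p = 0.146) and the second Nr1d2 probe (-0.02, adjusted p = 0.902) were not called, and for the latter most muscle values were not above background. Without the mice of both doubted brain libraries Bhlhe40 was no longer called (-0.35, adjusted p = 0.0707, limma), and it was likewise lost without any single mutant mouse (adjusted p 0.0889 to 0.0981). Of the other clock genes, 6 were called higher and 6 lower in brain out of 13, and of the output genes 1 higher and 6 lower out of 7.

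Testis, from other mice and another age, is given by levels alone, since tissue and age cannot be told apart there. Ciart had its highest levels in testis, at 6.55 to 7.11 by its first probe, above the 5.56 to 6.31 of brain without overlap. Bhlhe40 (4.91 to 6.15), Dbp (6.58 to 7.57) and Tef by its first probe (5.16 to 5.67) had their lowest levels there, below every brain and muscle library. Nr1d1 overlapped between testis (6.32 to 6.91) and brain (6.42 to 7.35). Per1 by its first probe was at 7.00 to 7.62 in testis, below brain and overlapping muscle, and it was highest in testis by its second probe, at 6.81 to 7.48. On this joint scale its probes placed the tissues in different orders. Per2 overlapped between testis (5.72 to 6.94) and muscle (5.47 to 6.95) by its first probe. Per3 overlapped in all 3 tissues. The place of testis against brain depends on the joint scale. With each tissue normalized alone, the first Ciart probe averaged 7.00 in wild-type and 7.26 in mutant brain, against 5.86 and 6.02 in testis. The second Per1 probe then averaged 7.61 and 7.71 in brain, against 6.27 and 6.13 in testis. Such values share no scale, so the order of testis and brain for these probes is not settled.

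**Figure D3:**
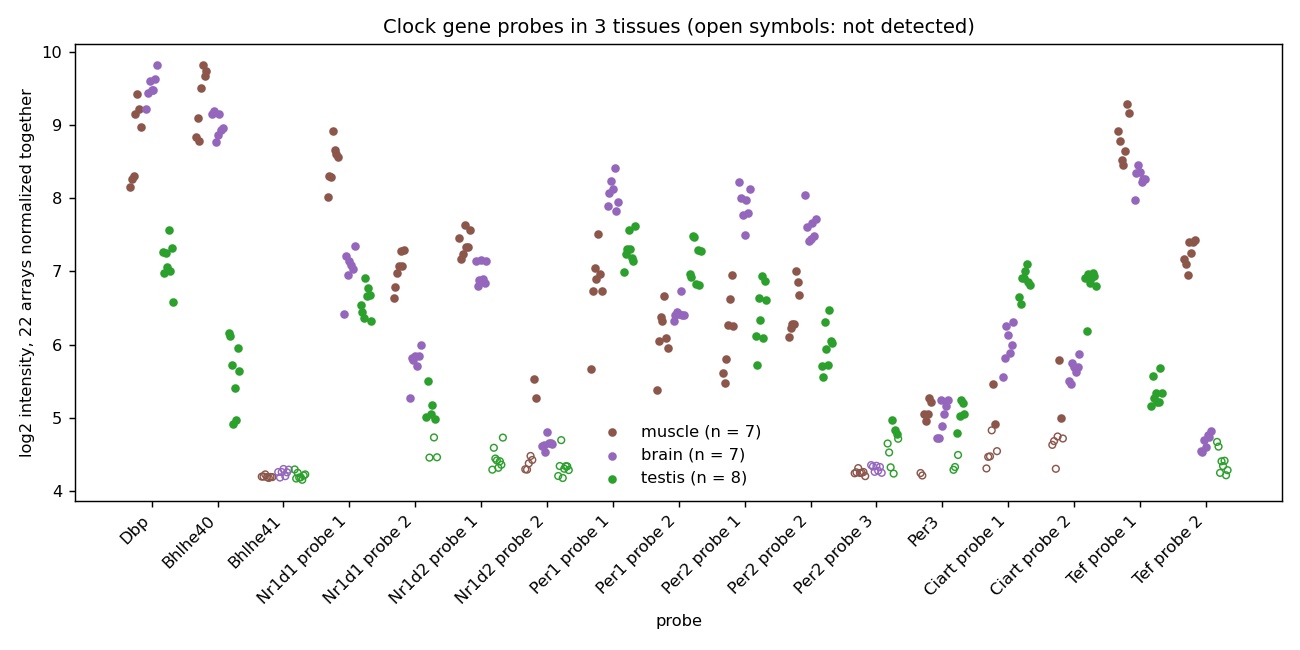
Log2 intensity of the 17 clock gene probes on all 22 arrays normalized together (vertical axis), for muscle, brain and testis, with open symbols where a probe was not detected. The second Tef probe is near background outside muscle, Ciart is highest in testis on this joint scale, and Bhlhe41 is open on every array.

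Because both tissues of a mouse were measured, the genotype difference of the brain minus muscle gap can be tested within animals. All 15 tested clock probes had a negative value, meaning a gap less in favour of brain in mutants, where 49.5% of all probes were positive. None of the 15 was called (0.0311% of all 16073 probes were), and 6 of the 15 had an unadjusted p under 0.05 (6.76% of all). Over the 11 probes detected on at least 50% of the arrays of each group, 5 did (6.62% of all such probes), all 11 again being negative. This contrast contains the muscle values already described and is no separate support for them. Bhlhe40 had gaps of 0.31, 0.10 and -0.02 in wild-type mice and of -0.64, -0.68, -0.73 and -0.78 in mutants. The mutant gaps were close together and all below the wild-type ones, and the difference of -0.84 (SE 0.13) had an adjusted p of 0.0772 in limma. Dbp had gaps of 1.07, 1.18 and 1.30 in wild type and of 0.33, 0.05, 0.41 and 0.85 in mutants. Brain exceeded muscle 2.27-fold in wild-type mice and 1.33-fold in mutants, and the gap differed by -0.77 (SE 0.18, adjusted p = 0.258, limma). Per2 by its first probe had gaps of 2.61, 2.53 and 1.98 in wild type and of 1.23, 1.35, 0.85 and 1.87 in mutants (-1.05, SE 0.23, adjusted p = 0.229). Per3 had gaps of 0.47, 0.51 and 0.19 in wild type and of -0.06, -0.01, -0.11 and 0.03 in mutants (-0.43, adjusted p = 0.435, limma), with 2 of the wild-type muscle values not above background. Without the mice of both doubted brain libraries these differences were -0.92 for Bhlhe40, -0.60 for Dbp, -1.25 for Per2 and -0.54 for Per3 (adjusted p 0.303 to 0.733, limma).

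The genotype effect in muscle minus that in testis was also tested. None of 15 probes was called (0.0476% of all 14691 were), and 3 of the 15 had an unadjusted p under 0.05 (6.61% of all). These were Dbp at 0.98 (SE 0.26, adjusted p = 0.304, limma), Bhlhe40 at 1.01 (SE 0.35, adjusted p = 0.542) and the second Tef probe, which was detected on no testis array, so that its value holds no testis effect. Over the 9 probes detected on at least 50% of the arrays of each group, 2 had an unadjusted p under 0.05 (5.94% of all such probes). The tissues also differ in age here, and the calls of Dbp and Bhlhe40 in muscle are not shown to be specific to muscle by an adjusted test.

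**Figure D4:**
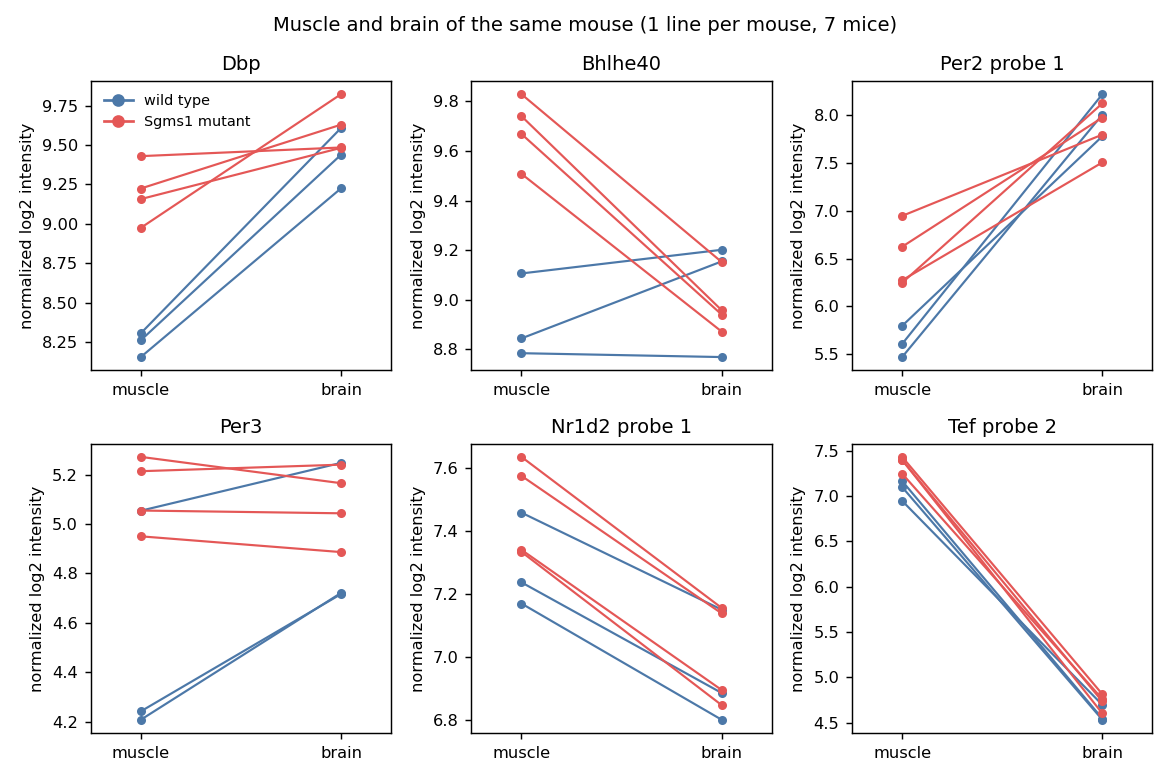
Normalized log2 intensity in muscle and brain of the same mouse for 6 clock gene probes, 1 line per mouse, blue for 3 wild-type and red for 4 mutant mice. For Dbp and Bhlhe40 the genotypes are apart in muscle and overlap in brain, while the second Tef probe falls steeply in every mouse.

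The 7 mice also show whether an animal with a high level in muscle has a high level in brain. For 7 of the 12 probes tested in both tissues the genotypes were separate in muscle, so no pooled correlation is given for them. Of all 12, 2 probes had an exact permutation p under 0.05 with positive r, where 3.69% of 10582 probes did, and none of those 10582 passed adjustment. The 2 were Nr1d2 by its first probe and Per3. Nr1d2 gave a Pearson r of 0.917 (exact p = 0.00516, adjusted p = 0.674) and a Spearman rho of 0.929 (exact p = 0.00675, adjusted p = 0.768). The same mice, wild type 1 and mutants 1 and 4, had the 3 highest levels in both tissues, from 7.46 in muscle and from 7.14 in brain. Without the 2 mice farthest from the muscle median r was 0.848, and without the mice of both doubted libraries it was 0.914. Per3 gave r = 0.905 (exact p = 0.00635, adjusted p = 0.686) and rho = 0.714 (exact p = 0.0881, adjusted p = 0.99), with r = 0.678 without the 2 farthest mice. Wild types 1 and 2 had the lowest Per3 levels in both tissues, and in muscle these were not above background. The second Per1 probe ranked the 7 mice identically in both tissues (rho = 1, exact p = 0.000397, adjusted p = 0.768; r = 0.805, exact p = 0.05, adjusted p = 0.879), with r = 0.856 without the 2 farthest mice. The first Per1 probe gave r = 0.663 (exact p = 0.101, adjusted p = 0.925) and rho = 0.607 (exact p = 0.167, adjusted p = 0.99), with r = 0.288 without the 2 farthest mice. The first Tef probe gave r = -0.391 (exact p = 0.406, adjusted p = 0.987) and rho = -0.571 (exact p = 0.2, adjusted p = 0.991), with r = -0.778 without the 2 farthest mice. The time at which each mouse was sampled, which would be shared by its tissues, is not stated in the labels.

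Among other genes, those whose levels followed Dbp most closely over the 7 muscle arrays, out of 10751 probes, were Acot11 (Pearson r = 0.988), Tmem64 (0.978), Map4 (0.973), Pkm (0.968) and Cnot4 (0.968). Since Dbp itself separates the genotypes in muscle, any gene that does so ranks high. Over the deviations from tissue means on all 22 arrays, out of 8327 probes, they were Dmwd (r = 0.768), Zfp212 (0.729), Zbtb17 (0.719), Taf6 (0.712) and Amhr2 (0.703). Genotype means were not subtracted there, so the genotype gap of Dbp in muscle enters these values too. All of these probes were higher in mutant muscle, by 0.26 (Dmwd) to 1.39 (Taf6, adjusted p = 0.00308, limma). The correlations describe likeness across arrays that share mice and normalization, and carry no test. Among the clock probes themselves, Bhlhe40 (0.935) and Per2 by its first probe (0.921) were most like Dbp over the 7 muscle arrays, and Tef by its first probe (0.13) was least like it. Within genotypes, after subtraction of each genotype's mean, the order changed. Per1 was then most like Dbp (0.709 and 0.753 by its probes), Per2 stood at 0.556 and 0.576, Bhlhe40 at 0.247, Nr1d2 by its first probe at -0.698 and the second Tef probe, at 0.751 over all 7 arrays, at -0.785.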

How the data were processed

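Total RNA was labelled as biotinylated cRNA with an Ambion MessageAmp kit, per the labels' protocols, and the submitters' processing notes name GenomeStudio 2011.1. The authors deposited, per the file headers, a non-normalized linear intensity and a detection p-value per probe and array, and a table of their processed values whose normalization is unstated. In the deposited processed table the array medians lay between 15.0 and 15.1, its scale, centring and method stay unknown, and it ranked the probes of each array as the raw intensity did. It served only as an alternative.

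Intensities of a tissue were background-corrected (normexp, offset 16, with the detection p standing in for the negative control probes), quantile-normalized and taken to log2 with limma 3.58.1 in R 4.3.3. Comparisons of tissues used all 22 arrays normalized together. Probes with detection p under 0.05 on at least 3 arrays of a tissue were tested with lmFit and eBayes, two-sided, with Benjamini-Hochberg adjustment over all probes tested at 0.05. All adjusted p-values of single probes are limma's, except those of same-mouse correlations, which come from exact permutations. Brain and muscle were paired by mouse identifier, and deviations of same-mouse libraries from their group means correlated at 0.0181 to 0.182. In the pairs numbered 3 (r = 0.146) and 5 (r = 0.0181) the same-mouse library was not the best match. In the order of the labels these are wild type 3 and mutant 2, the mice of both doubted brain libraries. The pairing of these mice therefore rests on the labels alone. On simulated data for muscle (11391 probes), 89% of log2 changes of 1 and 100% of changes of 2 were recovered, and 7.8% of the calls were false. No 2 arrays held identical values.

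The 10 genes, both other gene lists, the marker lists and the alternatives were chosen with earlier results of these data known. Genes outside the 10 were named by rule: up to 4 of smallest p or any called per list and comparison where single genes are given, and the 5 most like Dbp. Alternatives were the background correction, the offset, the scaling, joint normalization, the authors' values, the detection filter, 1 fit over 22 arrays, moderated variance options, array weights, 1 probe per gene, a block on the number of the replicate, fits with fat markers or without doubted libraries, and leaving out each library. Of the 25697 probes, 23978 had 1 gene symbol, 0 had several and 1719 had none.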

Additional observations from a re-analysis of the deposited data

Results flagged for a closer look

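In groups of 4 arrays, 53 sets of clock probe values were examined for 1 array far from the other 3, and chance alone marks about 1 in 20 such sets. There were 3 sets with such an array. The second Nr1d2 probe stood at 5.34 in brain mutant 1, against 5.00 to 5.04 in the other mutant brains. The second Per1 probe stood at 7.97 in brain mutant 2, against 7.62 to 7.64 in the others, and this is a library whose Sgms1 level went against its label. The second Ciart probe stood at 5.38 in testis wild type 2, against 5.93 to 6.04 in the other wild-type testes, and this library had the lowest median intensity of all 22, at 93.7.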

How the results depend on the processing

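Of the muscle values of single clock probes under alternatives, 0 of 247 changed sign. The number of clock genes called in muscle was 2 and ran from 0 to 3. It was 1 without background correction, 1 with all 22 arrays normalized together, 0 with the authors' processed values, 0 without a detection filter (where more probes share the adjustment), 0 with Adipoq as a covariate and 0 without wild types 1 and 3; leaving out 1 library gave 0 to 2. Counting only probes detected on at least 50% of the arrays of each group, chosen after seeing the data, gave 2 clock genes called in muscle, 7 against 8 for brain minus muscle, and 0 as before in testis and in both differences between tissues. Dbp was called in 16 of 21 alternatives (adjusted p 0.00068 to 0.746, limma) and Bhlhe40 in 7 of 21 (0.00403 to 0.999). With the replicate number as a replicate block 2 clock genes were called, Dbp and Per2 (adjusted p = 0.0193 and 0.0431), while Bhlhe40 had 0.0537, and the probes called over the whole array rose from 12 to 38. Same-numbered libraries of the genotypes correlated at 0.0151, 0.0749 and 0.101 in muscle. Those numbered 2 and 3 were best matches there and in brain (0.136 and 0.128), and none were in testis. These values overlap those of same-mouse brain and muscle libraries (0.0181 to 0.182). They therefore do not decide whether the numbers mark pairs, and the main fit used no pairs of wild-type and mutant mice. In brain and testis the block changed no count. Over all alternatives the probes called on the whole array ran from 0 to 156 in muscle (main 12), 0 to 6 in brain (0), 0 to 109 in testis (0), 0 to 21 for the genotype difference of brain minus muscle (5) and 1 to 15 for muscle minus testis (7). For the genotype difference of brain minus muscle, 1 clock gene, Bhlhe40, was called without background correction, against 0.

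Values that changed sign were mostly near 0, and the cause was not tested. In brain, median scaling gave Nr1d2 probe 1 -0.02 (-0.019), Per1 probe 1 -0.06 (-0.063) and Tef probe 1 -0.05 (-0.0509), array weights gave Per1 probe 1 -0.00682 and Tef probe 1 -0.027, and without both doubted libraries Per1 probe 1 was -0.0122. In testis, Dbp was 0.00433 without background correction, 0.00126 with an offset of 50 and 0.1519 with median scaling, Per2 probe 3 was -0.00349 without background correction, and Per1 probe 2 was 0.0215 with median scaling. For brain minus muscle, median scaling gave Bhlhe40 0.2921, Nr1d2 probe 1 0.5073 and Tef probe 1 0.1891, and the authors' values gave Nr1d2 probe 2 0.1343. For the genotype difference of that gap, Tef probe 2 was 0.061 with median scaling and 0.0318 with the authors' values, and without the mice of the doubted libraries Ciart was 0.0839 and 0.1042 by its probes and Tef probe 1 0.00913. For muscle minus testis, Per3 was 0.00776 without background correction and 0.0258 with median scaling, which gave Ciart probe 1 -0.0353 and Tef probe 1 -0.0125. Median scaling moved the median of all probes to 0.12 in testis, 0.34 for brain minus muscle and -0.14 for muscle minus testis.

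Leaving out 1 library changed the sign of these differences. In brain, Bhlhe40 ran from -0.1807 to 0.0212, Nr1d2 probe 1 from -0.00983 to 0.1637, Per1 probe 1 from -0.0964 to 0.0944, Per2 probe 2 from -0.2391 to 0.0569 and Tef probe 1 from -0.1137 to 0.1115. In testis, Dbp ran from -0.1508 to 0.1512, Nr1d1 from -0.0236 to 0.1311 and from -0.1899 to 0.000814 by its probes, Per1 probe 1 from -0.0622 to 0.1264, Per2 probe 3 from -0.0459 to 0.0692 and Tef probe 1 from -0.0525 to 0.0712. For brain minus muscle, Nr1d2 probe 2 ran from -0.0793 to 0.122. For its genotype difference, Per1 probe 2 ran from -0.4245 to 0.00819 and Tef probe 1 from -0.3596 to 0.0725. For muscle minus testis, Per2 probe 3 ran from -0.187 to 0.0454, Per3 from -0.1789 to 0.2441 and Tef probe 1 from -0.00603 to 0.2708. A block on the slide was planned and not run, since the tables used here name no slide. Per3, Ciart and Nr1d2 probe 2 were near background in muscle, which leaves their differences without an exact size.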
